A study of Mus musculus with 2 samples.

Results

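Bglap-expressing osteoblasts were collagen I-producing cells of a calvarial defect, selected on the measured levels of Bglap and Bglap2, in which at least 0.5% of all unique molecular identifiers (UMIs, each the count of 1 captured mRNA molecule) came from these genes. There were 138 of them among 17129 cells, 79 of 9036 in the library from mice given gambogic amide (GA), a small molecule, and 59 of 8093 in the control library. A member also had at least 0.5% of its UMIs from Col1a1 and Col1a2, at most 5 UMIs of Ptprc and Csf1r, less than 1% of its UMIs from S100a8 and S100a9, 500–140000 UMIs, 200–9500 genes and a mitochondrial share of at most 15%. Male C57BL/6 mice (the C57BL/6J substrain in the methods of the study), 2 months old, received daily intraperitoneal injections of 100 μL of GA at 1.2 mg/kg in 10% DMSO or of 10% DMSO alone, from 24 h before a frontal bone defect of 1.8 mm was made, over 1 week. The defect site was taken 7 days after injury and digested, and cells of 5 mice were pooled into 1 droplet library for each treatment. The GA group and the control group were therefore 1 sample each. No test between them was possible, and the intervals below cover counting error only. The dose and the length of treatment are those of the sample labels, while the methods of the study name 2 mg/kg daily and up to 4 weeks.

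Osteoblasts build bone in steps. Collagen I is laid down as osteoid, mineral then forms on and in it, and the cell either dies, becomes a flat lining cell or is buried as an osteocyte. Runx2 and Sp7 are the transcription factors that commit a cell to the lineage. Alpl, the tissue-nonspecific alkaline phosphatase that frees phosphate for mineral, and Ibsp, the integrin-binding sialoprotein, mark active bone formation. Bglap and Bglap2 encode osteocalcin, the vitamin K-dependent, calcium-binding protein of mature osteoblasts. Dmp1 and Phex, which act on mineralization and phosphate balance, come up as a cell embeds in matrix, and Mepe and Sost mark later osteocytes. The calvaria forms directly from mesenchyme, with no cartilage template.

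Several genes of the class lie in clusters on chromosomes 3 and 5 of the mouse genome (GRCm38). Bglap (ENSMUSG00000074483) is on the minus strand of chromosome 3 from 88383501 to 88384464, with Bglap2 (ENSMUSG00000074486) from 88377736 to 88378699 and Bglap3 (ENSMUSG00000074489) from 88368616 to 88372743. Dmp1 (chromosome 5, 104202613 to 104214102), Ibsp (104299171 to 104311469), Mepe (104325329 to 104338611) and Spp1, which encodes osteopontin (104435118 to 104441050), stand in a row on the plus strand of chromosome 5 and encode related acidic matrix phosphoproteins. The 250 bases before the RefSeq start of Bglap (chr3:88384467-88384716, minus strand) and before a RefSeq start of Dmp1 (chr5:104202367-104202616, plus strand) are printed because Bglap set the class and Dmp1 had the ratio between libraries farthest from 1 among its 5 marker genes. Both hold 1 copy of ACCACA, the letters of a RUNX site, searched with its reverse complement TGTGGT and shown in capitals. It begins 132 bases before the Bglap start and 164 bases before the Dmp1 start.
Bglap: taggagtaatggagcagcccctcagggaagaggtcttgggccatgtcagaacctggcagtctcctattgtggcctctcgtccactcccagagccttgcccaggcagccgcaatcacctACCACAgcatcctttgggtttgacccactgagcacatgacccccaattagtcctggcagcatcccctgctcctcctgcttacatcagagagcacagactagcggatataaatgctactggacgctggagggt
Dmp1: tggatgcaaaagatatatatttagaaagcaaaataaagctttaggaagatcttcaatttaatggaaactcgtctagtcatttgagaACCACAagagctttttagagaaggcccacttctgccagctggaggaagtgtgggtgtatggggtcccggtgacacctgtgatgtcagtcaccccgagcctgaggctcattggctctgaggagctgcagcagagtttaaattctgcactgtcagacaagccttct
The same letters were in 14.0% of 32851 RefSeq promoter windows of that length, and not in the window of another RefSeq start of Dmp1 (chr5:104197325-104197574), the Ibsp window (chr5:104299037-104299286) or the Ifitm5 window (chr7:140950244-140950493). A match is a run of letters and not a measured binding site.

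The members carried the markers of the name. Bglap stood at 49423 UMIs per 1000000 UMIs of the class (CPM) in GA and 57001 CPM in control, and Bglap2 at 19042 and 20041 CPM, values that the rule itself fixed. Ibsp was detected in 71 of 79 GA members and 58 of 59 control members, Ifitm5, a small membrane protein of mineralizing osteoblasts, in 69 and 57, Sp7 in 69 and 57, and Runx2 in 69 and 58. Dmp1 was detected in 50 of 79 (63.3%, 51.7–73.9, exact binomial interval) and 31 of 59 (52.5%, 39.1–65.7). In cells rich in S100a8 and S100a9, which should lack it, Dmp1 had a UMI in 0.309% of 4860 GA cells and 0.231% of 2168 control cells, at median depths of 7490 and 5423 UMIs against 42806 and 42428 UMIs in the osteoblasts. Runx2 had a UMI in 41.6% and 39.4% of those cells, so its detection alone does not mark the class. The later osteocyte genes were almost absent. Mepe had 1 UMI in each library, Sost 3 UMIs in GA and 21 in control, and Fgf23 none. Phospho1, a phosphatase of matrix vesicles on the list of osteoblast markers, had 6 and 5 UMIs.

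Depth was alike in the middle and differed at the low end. The GA members held 2964929 UMIs and the control members 2535166. There were 12 GA and 3 control members under 10000 UMIs, and 5 and 0 under 2000 UMIs. The lowest Bglap and Bglap2 shares inside the limit were 0.549% in GA and 0.540% in control, and the highest outside it, among collagen I cells, 0.460% and 0.288%. A further 7 GA and 6 control cells met the Bglap limit and failed another limit, with 7 and 3 of them rich in S100a8 and S100a9 and 2 and 5 over the limit for Ptprc and Csf1r. The libraries shared 23 barcodes, of which none was an osteoblast in both.

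Bglap and Bglap2 could not be told apart with confidence. Their last 100 transcript bases, where a 3′ library reads, were identical, and Bglap3 matched Bglap at 98 of 100. Bglap2 took 27.8% of the pair's UMIs in GA and 26.0% in control, and from 15.6% to 45.8% in single GA members and 11.9% to 44.9% in control members. Bglap3, at 810 CPM in GA and 1194 CPM in control, is likewise uncertain.

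**Figure D1:**
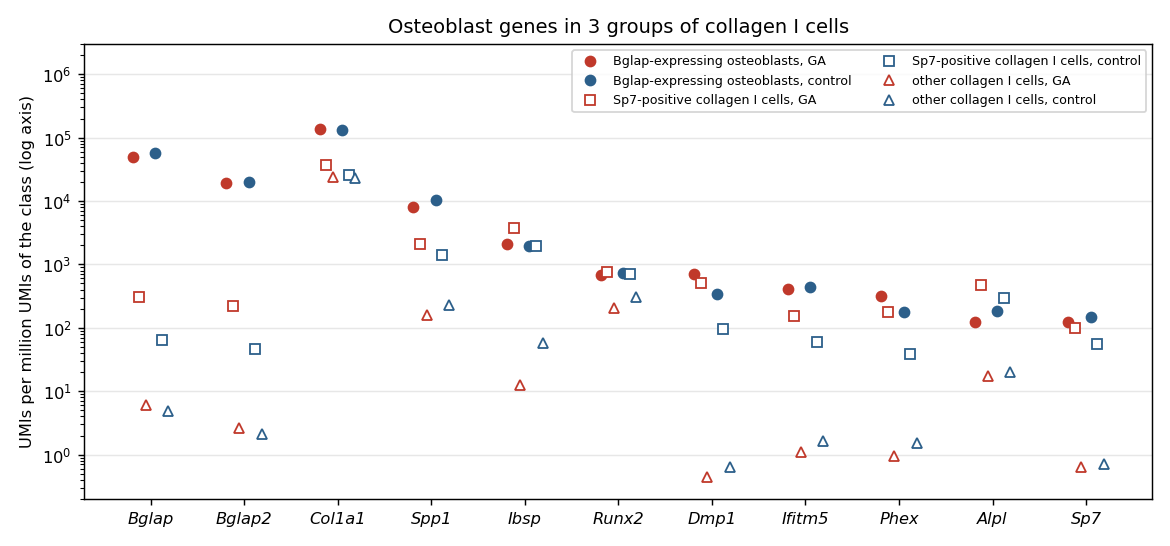
Levels of 11 osteoblast genes, in CPM on a log axis, in Bglap-expressing osteoblasts (filled circles), Sp7-positive collagen I cells below the Bglap limit (open squares) and the other collagen I cells (open triangles), GA in red and control in blue. Bglap is at 49423 and 57001 CPM in the osteoblasts and at 310 and 63.3 CPM in the Sp7-positive cells, whereas Alpl is higher in the Sp7-positive cells (480 and 299 CPM) than in the osteoblasts (123 and 183 CPM).

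As a share of all cells, osteoblasts were 0.874% in GA (0.693–1.09) and 0.729% in control (0.555–0.939), a ratio of 1.20 whose interval of 0.857–1.68 includes 1. As a share of collagen I cells they were 79 of 986 (8.01%) and 59 of 2018 (2.92%), a ratio of 2.74 (1.97–3.81). The collagen I cells themselves were 10.9% of all GA cells and 24.9% of control cells. Collagen I cells below the Bglap limit with at least 2 UMIs of Sp7, called Sp7-positive cells below, numbered 33 in GA and 69 in control, 3.35% and 3.42% of collagen I cells (ratio 0.979, 0.651–1.47). As a share of all cells, Sp7-positive cells were 0.365% in GA and 0.853% in control (ratio 0.428, 0.283–0.648). Of the 2 groups together, osteoblasts made up 70.5% in GA (61.2–78.8) and 46.1% in control (37.3–55.1), a ratio of 1.53 (1.23–1.91). With 1 library per treatment, treatment and library cannot be told apart in any of these shares.

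Against all other collagen I cells, with the class limits on both sides, 256 of 2527 genes with at least 100 UMIs in the members of each library (10.1%) were at least 2-fold higher in the osteoblasts of both libraries and 336 (13.3%) at least 2-fold lower. Since the class was cut from the same cells, these values describe it and test nothing. The 15 genes with the highest fold, ranked by the lower of the libraries, began with Bglap, Bglap2 and Bglap3. Car3, a carbonic anhydrase, was 389-fold higher in GA and 533-fold higher in control. Several were collagens other than collagen I. Col22a1 was 167- and 429-fold higher, Col11a2, a chain of the fibrillar collagen XI, 148- and 271-fold, and Col13a1, a transmembrane collagen, 92.2- and 124-fold. Gal, the neuropeptide galanin, was 102- and 289-fold higher, and Lipc, hepatic lipase, 73.2- and 166-fold. Ifitm5 was 74.0- and 112-fold higher and Slc36a2, a transporter of small amino acids, 72.4- and 120-fold. Adarb2, which encodes a double-stranded RNA-binding protein of the adenosine deaminase family, Fstl4, Mlip and Ranbp3l completed the list. Their folds in the other collagen I cells rest on few UMIs, for Adarb2 on 9 in GA and 42 in control.

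Lists drawn up for the tissue, with earlier results of these data known, describe the class beside the other collagen I cells. Of 22 bone matrix genes with at least 20 UMIs in the collagen I cells of each library, 13 were over 2-fold higher in osteoblasts of both libraries and 5 over 2-fold lower, against 4.97% and 33.9% of all 15319 genes tested. Col1a1, Col1a2, Bglap and Bglap2, which the rule used, are among the 13, and Bglap and Bglap2 had to be higher, since they separated the groups. Spp1 was 37.4-fold higher in GA and 38.2-fold in control, Dmp1 45.5- and 79.9-fold, and Smpd3, the sphingomyelinase that bone mineralization requires, 52.9- and 159-fold. The transcription factors were higher by 33.6- and 53.0-fold for Sp7, but by only 3.03- and 2.25-fold for Runx2. Ramp1, a co-receptor for calcitonin gene-related peptide, was 60.9- and 35.8-fold higher, while Calcrl, its partner, had no UMI in any member. Pth1r, the parathyroid hormone receptor, was 11.4- and 10.8-fold higher, and Vdr, the vitamin D receptor, 28.6- and 34.6-fold. Postn, periostin, stood at 0.00728 and 0.0506 times its level in the other collagen I cells, and Tnc, tenascin C, at 0.0713 and 0.0408 times. Of 25 genes of glycolysis and hypoxia, 21 were over 2-fold lower in osteoblasts of both libraries and 0 higher. Gapdh stood at 0.172 and 0.145 times and Ldha at 0.276 and 0.295 times.

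After every cell was thinned to 2000 UMIs, the osteoblasts showed a median of 794 genes in GA and 768 in control, with 5 GA members too shallow to enter. The Sp7-positive cells had 1044 and 1095 and the other collagen I cells 1095 and 1091. Without thinning the osteoblast medians were 4910 and 4956 genes.

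Between the libraries the osteoblasts were alike for most genes. Of 2811 genes with at least 200 UMIs over both, 37 (1.32%) were at least 2-fold higher in GA and 23 (0.818%) at least 2-fold lower, with a median log2 ratio of GA over control of 0.03 and the middle 80% of genes between −0.33 and 0.40. Col1a1 stood at 136670 CPM in GA and 133920 CPM in control, a log2 ratio of 0.03 (0.02 to 0.04, exact interval from the counts), and Sparc, osteonectin, had 0.06. Among 21 bone matrix genes with at least 20 UMIs, 1 was at least 2-fold higher and 1 lower, with a median of 0.03. Over all 9354 genes with that many UMIs, 3.44% were higher and 4.82% lower by that much. The genes of collagen processing (25, median 0.02), the secretory pathway (24, median 0.02) and the osteoblast transcription factors (22, median −0.09) held 0, 0 and 1 gene at least 2-fold higher in GA and 1, 0 and 0 lower.

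Dmp1 was the bone matrix gene on the higher side. It had 2106 UMIs in GA and 871 in control, 710 and 344 CPM, a log2 ratio of 1.05 (0.93–1.16). The lowest, median and highest members were at 0, 126 and 9464 CPM in GA and at 0, 25.9 and 5390 CPM in control. The ranges of the libraries overlapped. Of members with at least 10000 UMIs, 14 of 67 in GA and 4 of 56 in control reached 1000 CPM of Dmp1. Without the 5 members of each library with the most Dmp1 the log2 ratio was 1.28, and with a Bglap limit of 1% it was 0.95, short of 2-fold. Leaving out 5 members takes a larger share of the 59 control than of the 79 GA members. Such ratios can move towards GA for that reason, here and below. Thinned to 10000 UMIs, 43 of 67 GA members (64.2%, 51.5–75.5) and 25 of 56 control members (44.6%, 31.3–58.5) had a Dmp1 UMI, with 12 and 3 members left out.

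**Figure D2:**
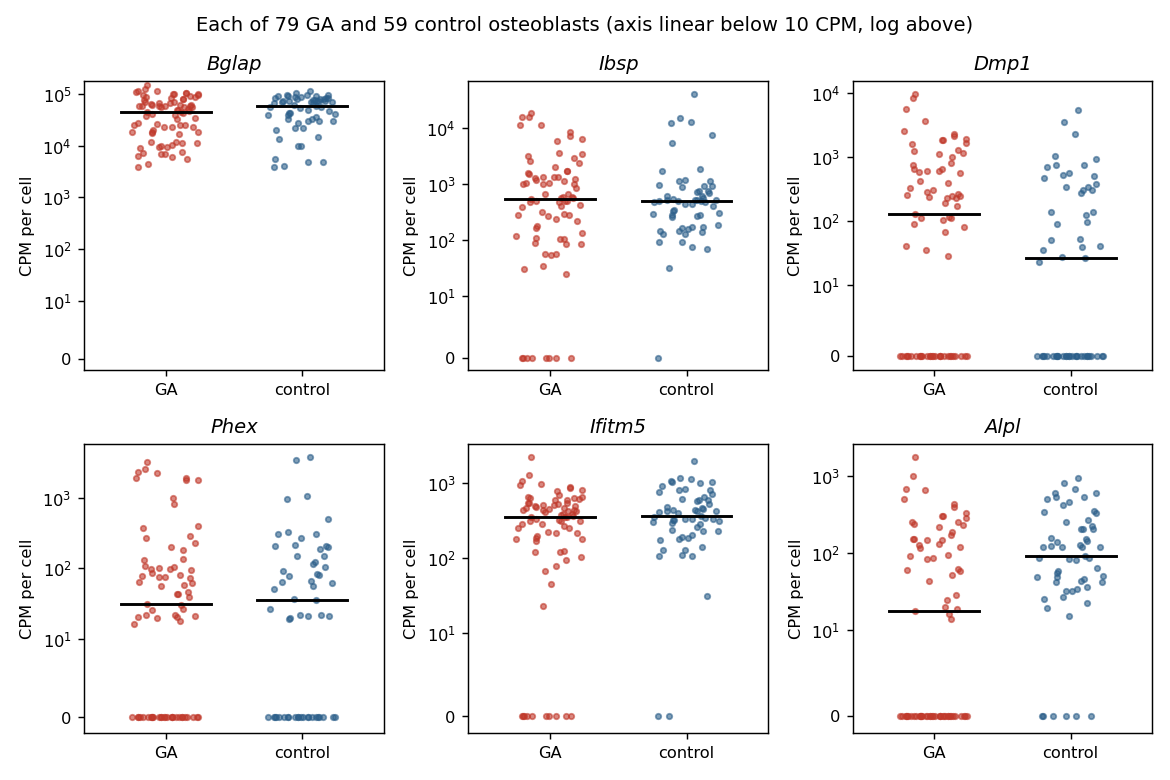
Levels of 6 genes in each Bglap-expressing osteoblast, in CPM of that cell, on an axis that is linear below 10 CPM and logarithmic above. Points are cells, 79 from GA and 59 from control, and bars are medians over cells. Ibsp and Ifitm5 medians were close (549 and 496 CPM, 355 and 363 CPM), the Dmp1 median was 126 CPM in GA and 25.9 CPM in control, and the Alpl median 17.9 and 91.7 CPM.

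Dmp1 is also on the list of genes that come up as osteoblasts turn into osteocytes. Of 17 on that list with at least 20 UMIs, Dmp1 included, 14 had a ratio above 0 (51.1% of all genes with that many UMIs did), 4 were at least 2-fold higher (3.44% of all), 1 was at least 2-fold lower (4.82% of all), and the median log2 ratio was 0.48, against 0.01 over all genes with that many UMIs. This list, like the others, was drawn up with earlier results of these data known, so its counts are a description and test nothing. Phex stood at 315 CPM in GA and 176 CPM in control (0.84, 0.67–1.00). Pdpn, podoplanin, a membrane protein of cells that grow dendrites, stood at 167 and 64.3 CPM (1.38, 1.12–1.64; 0.96 with a Bglap limit of 1%). Sgk1, a kinase induced by glucocorticoids, stood at 340 and 148 CPM (1.20, 1.03–1.38; 0.81 by the mean of per-cell CPM), and Fbln7, a secreted fibulin, with 150 and 28 UMIs (2.20, 1.61–2.83) in 14 and 8 members (4.14 without its 5 highest members of each library). The exception past 2-fold was Sost, with 3 UMIs in 3 GA members and 21 UMIs in 3 control members. Dmp1 and Phex were detected together in 32 of 79 GA members and 25 of 59 control members. For Phex the medians over cells were 31.4 and 36.0 CPM, so the higher sum in GA came from members at the top of its range. The median share of UMIs from Bglap and Bglap2 was 6.34% in GA members and 8.20% in control members. Summed levels of Dmp1 and Phex were higher among members with the lowest shares (below). The part of this in the ratios was not tested.

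Among mineralization genes, Fam20c, the kinase that phosphorylates secreted matrix proteins such as Dmp1 and osteopontin, stood at 139 CPM in GA and 62.3 CPM in control (log2 ratio 1.16, 0.89–1.43), and Slc20a1, a phosphate transporter, at 28.7 and 14.2 CPM (1.01, 0.44–1.62). Alpl stood at 123 and 183 CPM (−0.57, −0.77 to −0.37). It was detected in 42 of 79 GA members and 53 of 59 control members, and after thinning to 10000 UMIs in 26 of 67 (38.8%, 27.1–51.5) and 33 of 56 (58.9%, 45.0–71.9). Smpd3 had a log2 ratio of −0.32, Car3 of −0.17 and Ifitm5 of −0.08 (−0.20 to 0.04). In all, 2 of 19 mineralization genes were at least 2-fold higher (3.44% of all genes) and 1 lower (4.82% of all), the latter Slc20a2 with 8 and 16 UMIs. Slc20a1 fell short of 2-fold in some alternatives, with 0.65 by the mean of per-cell CPM. Ibsp stood at 2106 and 1923 CPM (0.13, 0.08–0.19), but the 5 control members with most Ibsp held 3616 of its 4874 UMIs and the 5 GA members 3163 of 6244. Without them the log2 ratio was 1.05. Spp1 stood at 8109 and 10468 CPM (−0.37, −0.39 to −0.34), and at −0.17 without its 5 highest members of each library.

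**Figure D3:**
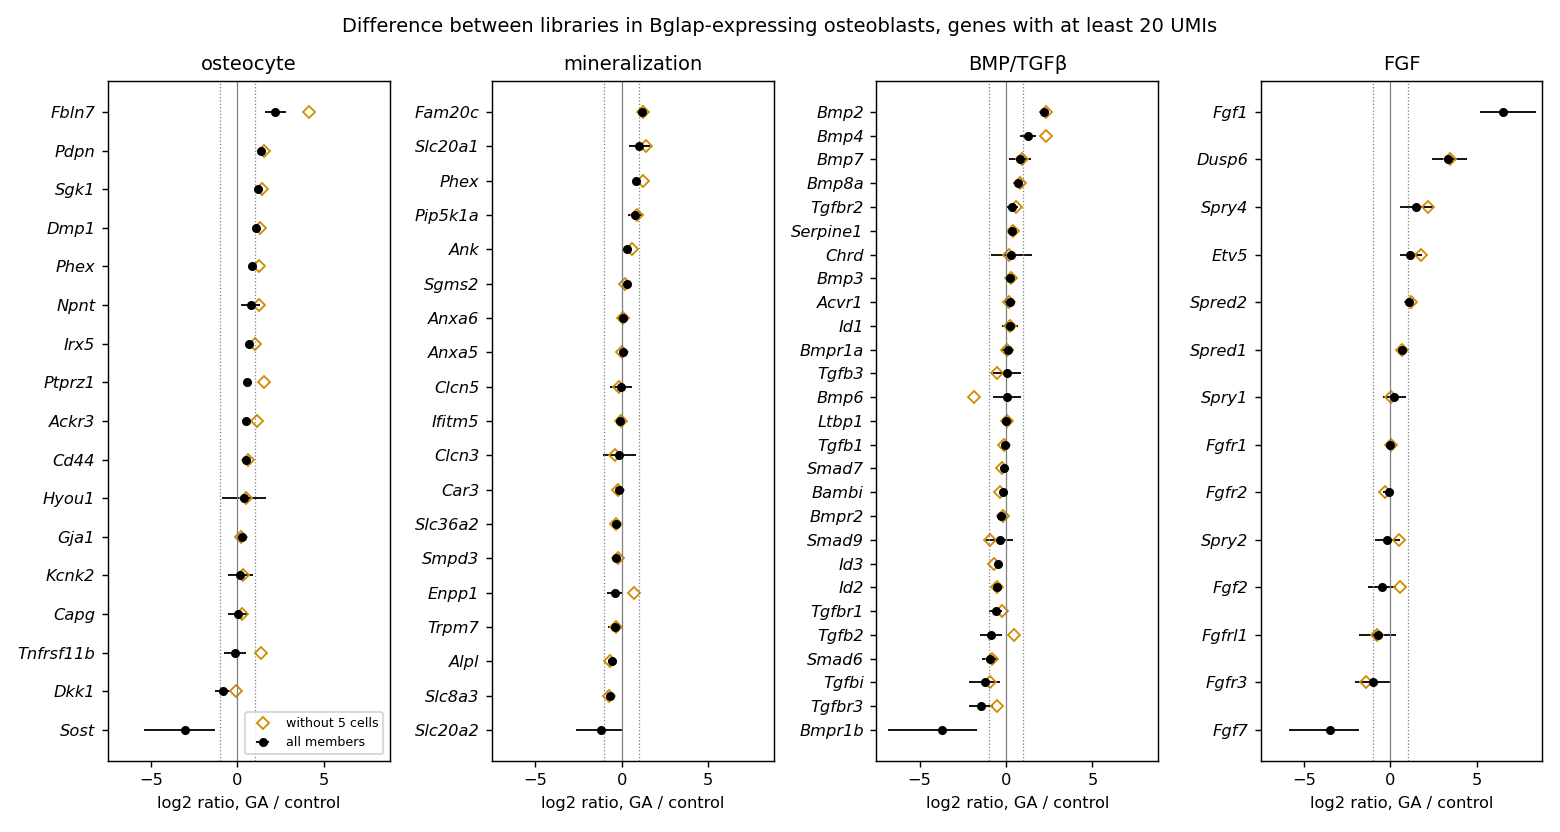
Log2 ratio of GA over control in Bglap-expressing osteoblasts for genes with at least 20 UMIs on the osteocyte, mineralization, BMP and TGFβ, and FGF lists. Black points with bars are ratios with 95% counting intervals, open diamonds the ratio without the 5 members of each library with the most UMIs of that gene (none drawn where a library was left at 0), and dotted lines mark 2-fold. Pdpn, Sgk1, Dmp1, Fam20c, Bmp2 and Dusp6 lie past 2-fold with and without those members, whereas no diamond could be drawn for Fgf1. Those 5 members are a larger share of the control than of the GA osteoblasts.

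Transcription factors of the lineage differed little. Runx2 stood at 680 CPM in GA and 724 CPM in control (log2 ratio −0.09, −0.18 to 0.00) and Sp7 at 122 and 150 CPM (−0.29, −0.50 to −0.08). Of 22 such genes 5 had a ratio above 0 (51.1% of all genes with at least 20 UMIs did) and 17 below. The 1 past 2-fold was Msx2, with 17 and 7 UMIs (1.05, and down to 0.57 over the alternatives). None of 18 hormone and phosphate receptor genes was past 2-fold, beside 3.44% higher and 4.82% lower of all genes. Pth1r had −0.31, Vdr −0.31 and Ramp1 0.59 (0.43–0.74). Among genes that couple osteoblasts to osteoclasts, Tnfsf11, which encodes RANKL, had 2 and 1 UMIs, and its decoy receptor gene Tnfrsf11b 48 and 45 UMIs (−0.13, −0.75 to 0.49), with 1.39 without its 5 highest members of each library.

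Bmp2 and Bmp4, ligands of the bone morphogenetic protein pathway, were past 2-fold on the GA side. Bmp2 had 661 UMIs in GA and 122 in control, 223 and 48.1 CPM, a log2 ratio of 2.21 (1.93–2.50). Its levels per member overlapped, with a median of 35.9 CPM and a highest value of 2478 CPM in GA against 0 and 1322 CPM in control, and 20 of 67 GA and 2 of 56 control members with at least 10000 UMIs reached 200 CPM. Bmp4 had 1.27 (0.83–1.73) in 19 and 12 members (2.30 without its 5 highest members of each library, 0.76 by the mean of per-cell CPM), Bmp7 0.80, Bmp8a 0.70, Bmp3 0.23 and Bmp6 0.04. The BMP target genes lay on both sides of 0. Id1 had 0.20, Id2 −0.51 and Id3 −0.49, and Smad6, a target that also inhibits the pathway, −0.94 (−1.37 to −0.51). Of 27 BMP and TGFβ genes 2 were at least 2-fold higher (3.44% of all genes), 3 were at least 2-fold lower (4.82% of all), and the median was 0.01. The receptor genes Bmpr1b and Tgfbr3 had −3.69 and −1.44, and over the alternatives they rose to −1.79 and −0.53.

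Of 14 genes on the FGF list, 5 were at least 2-fold higher in GA (Dusp6, Spry4, Spred2, Etv5 and Fgf1; 3.44% of all genes were) and 2 lower (Fgf7 and the receptor gene Fgfr3; 4.82% of all). Over the alternatives Spred2 went down to 0.93 and Fgfr3 to −0.72, and Fgf7 turned to 1.28 without the members high in Col3a1. Dusp6, a phosphatase of ERK, had 118 UMIs in 28 GA members and 10 UMIs in 9 control members (log2 ratio 3.33, 2.41–4.43). Spry4, Spred2 and Spred1, inhibitors of the same pathway, had 1.47 (0.54–2.49), 1.07 (0.79–1.36) and 0.70 (0.46–0.94), and the transcription factor Etv5 1.15 (0.53–1.81), with UMIs in 46 GA and 17 control members. Without their 5 highest members of each library, Spry4 had 2.17 and Etv5 1.78. Spry1 and Spry2, of the same family as Spry4, had 0.22 (−0.43 to 0.88) and −0.18 (−0.92 to 0.55), and the receptor gene Fgfr1 −0.03 (−0.16 to 0.10). Fgf1, with 434 and 4 UMIs the gene with the highest ratio among those with at least 200 UMIs (6.54, 5.17–8.42), had 428 of its GA UMIs in 5 members. In the Sp7-positive cells Fgf1 had 6 UMIs in GA and 238 in control (−3.80, −5.26 to −2.65).

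The remaining signalling genes were mixed or scarce. Vegfa, the vascular growth factor, stood at 163 CPM in GA and 70.6 CPM in control (log2 ratio 1.21, 0.96–1.46), and had 0.69 by the mean of per-cell CPM. Of 19 Wnt genes 0 were at least 2-fold higher (3.44% of all genes) and 3 lower (4.82% of all), Sost, Fzd2 and Wnt5a, each with at most 21 UMIs in either library. Wif1, a Wnt inhibitor made by mature osteoblasts, had 0.64 (0.45–0.84) and Lrp5, a Wnt co-receptor, −0.67 (133 and 181 UMIs). The hedgehog target Gli1 had 2 UMIs in GA and 8 in control, and Ptch1, the hedgehog receptor and also a target, 63 and 39 UMIs (0.47, −0.13 to 1.08). None of 8 hedgehog genes was past 2-fold, a count too small to set apart from those shares. Of these 8, 2 had a ratio above 0 and 6 below (51.1% of all genes with at least 20 UMIs were above 0), with a median of −0.22. Of 13 nerve-related genes 0 were at least 2-fold higher (3.44% of all genes) and 3 lower (4.82% of all), with a median of −0.15. Robo2, a receptor of SLIT guidance proteins, was the nerve-related gene with most UMIs past 2-fold, at 182 CPM in GA and 389 CPM in control (−1.10, −1.25 to −0.94; −0.76 without the 5 deepest members of each library), and its median over members was 109 and 230 CPM. Of 22 immediate early genes 10 had a ratio above 0 (51.1% of all genes with at least 20 UMIs did), 1 was at least 2-fold lower (4.82% of all), and the median was −0.08. That gene, the transcription factor Klf2, stood at 138 and 287 CPM (−1.06, −1.23 to −0.88; −0.77 by the mean of per-cell CPM), and Fos at 632 and 1063 CPM (−0.75, −0.84 to −0.66). Hspa1a, a heat shock gene that tissue digestion can induce, stood at 362 and 213 CPM (0.76, 0.61–0.92). Whether dissociation had a part in these values was not tested.

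Genes of oxidative phosphorylation lay slightly above 0, with 20 of 25 ratios positive and a median of 0.14, against 51.1% of all genes with at least 20 UMIs above 0, and none was past 2-fold. Glycolysis and hypoxia genes had a median of 0.09, with Vegfa and Pfkp past 2-fold of 21 (3.44% of all genes were at least 2-fold higher). Pfkp had 1.23, and went down to 0.68 over the alternatives. Cdkn1a, which encodes the cell cycle inhibitor p21, stood at 426 CPM in GA and 255 CPM in control (0.74, 0.60–0.88).

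**Figure D4:**
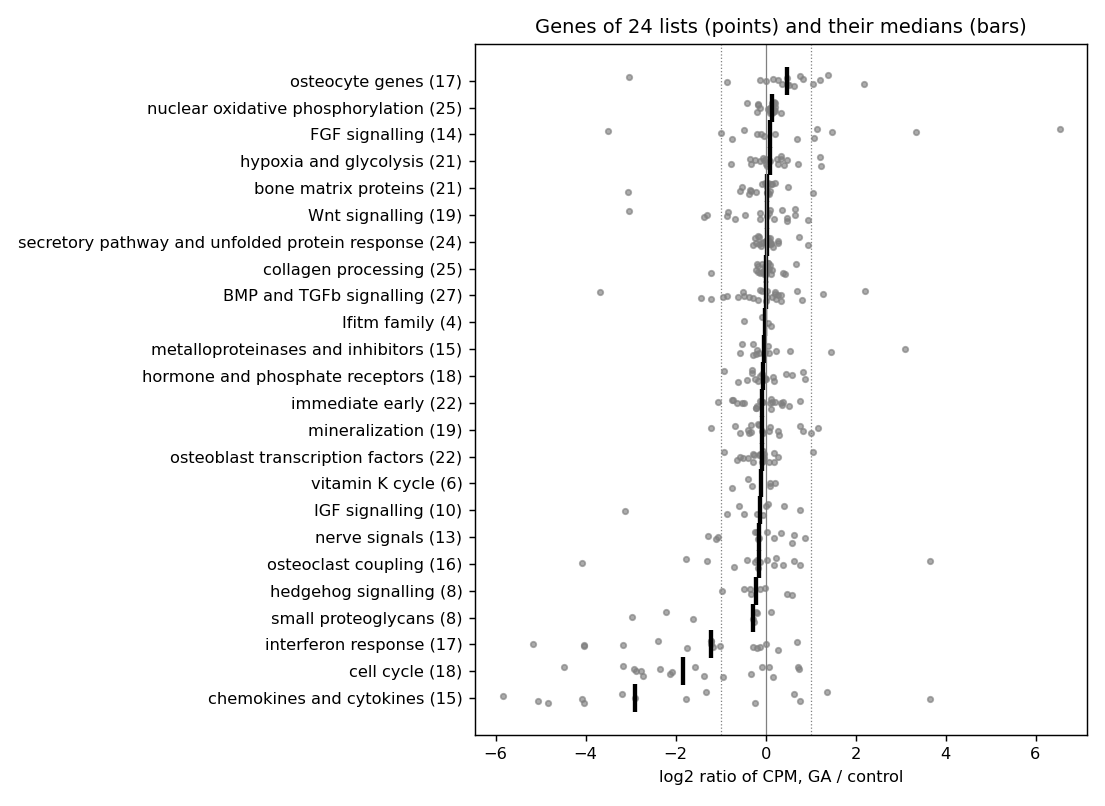
Log2 ratio of GA over control in Bglap-expressing osteoblasts for every gene with at least 20 UMIs (points) on 24 lists, with each list's median (bar) and number of genes in brackets; dotted lines mark 2-fold, and Csf2, with no UMI in GA, is counted but not drawn. Most medians lie within 0.3 of 0, and that of osteocyte genes is 0.48. Those of interferon response (−1.23), cell cycle (−1.83) and chemokines and cytokines (−2.90) lie past −1. Without the 5 members highest in each gene they were −0.55, 0.14 and −0.10, but some genes, such as Rsad2 and Mki67, had no UMI left there and no ratio.

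The genes lowest in GA came mostly from a few control members. The 10 lowest ratios among genes with at least 200 UMIs were those of Cxcl5 (−5.06), Ccl2 (−4.08), Cxcl1 (−3.18), Comp (−3.10), Postn (−3.06), Cxcl2 (−2.90), Nfkb1 (−2.14), Col3a1 (−1.89), Fstl1 (−1.78) and Slpi (−1.76). Col3a1, a fibroblast collagen, had 3859 UMIs in control, 3101 of them in 5 members, and 2914 of them in the 3 control members with Col3a1 at 0.5% or more of their UMIs. There was 1 such member in GA. Without these 4 cells the log2 ratio of Col3a1 was −0.21, of Cxcl5 −0.96, of Ccl2 −1.42 and of Cxcl2 −0.04. Slpi, a secreted protease inhibitor, did not follow them (−2.15). Cxcl1 had −1.83 and Postn −1.40. Without its own 5 highest members of each library, which held 310 of its 342 control UMIs, Cxcl1 had −0.75. Of 15 chemokine and cytokine genes with at least 20 UMIs, 10 were at least 2-fold lower in GA (4.82% of all genes) and 2 higher (3.44% of all), Lif (44 and 3 UMIs) and Il11 (27 and 9 UMIs). The list median of −2.90 was 0.21 with the highest Scrublet doublet scores removed and −0.04 without the members high in Col3a1. Of 17 interferon response genes 11 were at least 2-fold lower and 0 higher, and the median of −1.23 was −0.58 and −0.92 in those settings. Rsad2, an interferon-induced antiviral gene, had 56 UMIs in 3 control members and 4 UMIs in 4 GA members. Cell cycle genes varied in how many members held them. Top2a had 27 UMIs in 17 GA members and 69 UMIs in 21 control members (−1.58, −2.28 to −0.92). Mki67 had 31 UMIs in 4 control members and 4 UMIs in 2 GA members, and 11 of 18 genes were at least 2-fold lower in GA (4.82% of all genes) and 0 higher (3.44% of all). Without the 5 members highest in each gene the list median was 0.14 in place of −1.83, but over fewer genes. A gene with all its UMIs in those members, such as Mki67, had no ratio there. Pcna, which also acts in DNA repair, had 0.07 (−0.45 to 0.60).

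Markers of stem-like mesenchymal cells were carried by the control members named above. Their summed level was 11.5 CPM in GA and 106 CPM in control, with Dpt the most abundant gene, and 4 of 4 genes with at least 20 UMIs were at least 2-fold lower in GA (4.82% of all genes). Without the members high in Col3a1, Clec3b had 1.28 in place of −4.47 and Dpt −0.76 in place of −3.72. Chondrocyte markers summed to 68.8 and 87.6 CPM, with Sox9 the most abundant. Col2a1 had 1 and 86 UMIs, in 1 GA and 3 control members, and Matn1 and Col10a1 had none.

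The remaining genes among the 10 highest ratios were of several kinds. Mustn1, which encodes a small nuclear protein of the musculoskeletal system, had 618 UMIs in 30 GA members and 103 UMIs in 12 control members (2.36, 2.06–2.67), 91 of the control UMIs in 5 members. Without the 5 highest members of each library, which were 5 of the 30 GA and 5 of the 12 control members with a UMI, the ratio was 4.78. In all other collagen I cells Mustn1 stood at 34.7 CPM in GA and 16.0 CPM in control (1.12, 1.02–1.21). In the Sp7-positive cells among them it stood at 15.3 and 27.4 CPM (−0.83, −1.57 to −0.17). Plpp1, a lipid phosphatase, had 1.85 in 19 and 13 members (3.61 without its 5 highest), the transcription factor Glis3 1.76 in 34 and 19, Adarb2 1.63 in 34 and 18, Cdk5r1, an activator of the kinase Cdk5, 1.54 in 53 and 33, and Mettl6, an RNA methyltransferase, 1.44 in 44 and 26. S100a9 (1.92) and S100a8 (1.67) are neutrophil genes. The 9 neutrophil markers summed to 479 CPM in GA osteoblasts and 149 CPM in control osteoblasts, with S100a9 the most abundant, and to 547 and 176 CPM in the other collagen I cells below the Sp7 and Bglap limits. The S100a9 level in osteoblasts was 0.929 times that of all other collagen I cells in GA and 0.777 times in control, and 7 of 7 neutrophil markers with at least 20 UMIs were above 0 in log2 ratio (51.1% of all genes). Macrophage markers summed to 50.3 and 63.5 CPM, with Lyz2 the most abundant, and endothelial markers to 15.9 and 19.7 CPM, nearly all Pecam1, with Cdh5 at 0. Pericyte markers summed to 4.72 and 5.52 CPM, keratinocyte markers to 11.8 and 17.8 CPM with Krt5 and Krt14 at 0, and B cell markers to 10.5 and 10.7 CPM. Their part in the differences between libraries was not tested.

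Ordered by the share of UMIs from Bglap and Bglap2, the members differed among themselves in the same direction in both libraries for some genes. Each library was divided into a lower, a middle and an upper tertile (27, 26 and 26 GA members; 20, 20 and 19 control members) and levels were computed without Bglap and Bglap2 in the total. Of 2525 genes with at least 100 UMIs in each library, 4 (0.158%) were at least 2-fold higher in the upper than in the lower tertile in both libraries and 40 (1.58%) at least 2-fold lower. The order was made from the same cells, so the values are a description. Ibsp stood at 5239, 1331 and 508 CPM from the lower to the upper tertile in GA and at 5325, 554 and 379 CPM in control. Phex stood at 681, 265 and 98.8 CPM in GA and 415, 55.9 and 103 CPM in control, and Ptprz1, a receptor phosphatase, at 457, 99.4 and 30.3 CPM and 323, 36.9 and 32.3 CPM. Col3a1, Col6a2, Col6a3, Magi1 and Serpine2 were the other genes among the 8 lowest. Of the 3289 Col3a1 UMIs in the lower tertile of control most came from few cells, since the 3 control members high in Col3a1 held 2914 UMIs. On the upper side stood Adarb2, at 33.1, 286 and 282 CPM in GA and 2.57, 69.9 and 130 CPM in control, then Bglap3, Fstl4, Gal, Tmem189, Pde7b, Chn1 and Cacna2d3, a calcium channel subunit. Bglap3 matched Bglap and Bglap2, which set the order, at 98 of the last 100 bases. The part of read assignment in its place was not tested. Summed Dmp1 was lower in the upper tertile of GA (1251, 861 and 185 CPM), and in control stood at 555, 304 and 258 CPM. Over single members, however, the correlation (rho) of Dmp1 with Bglap was only −0.12 in GA and 0.02 in control. Sp7 hardly followed the order, at 142, 102 and 154 CPM in GA and 152, 164 and 170 CPM in control. The lower tertile was shallower, with median UMIs of 33036, 46271 and 46629 in GA and 35606, 41500 and 45871 in control.

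**Figure D5:**
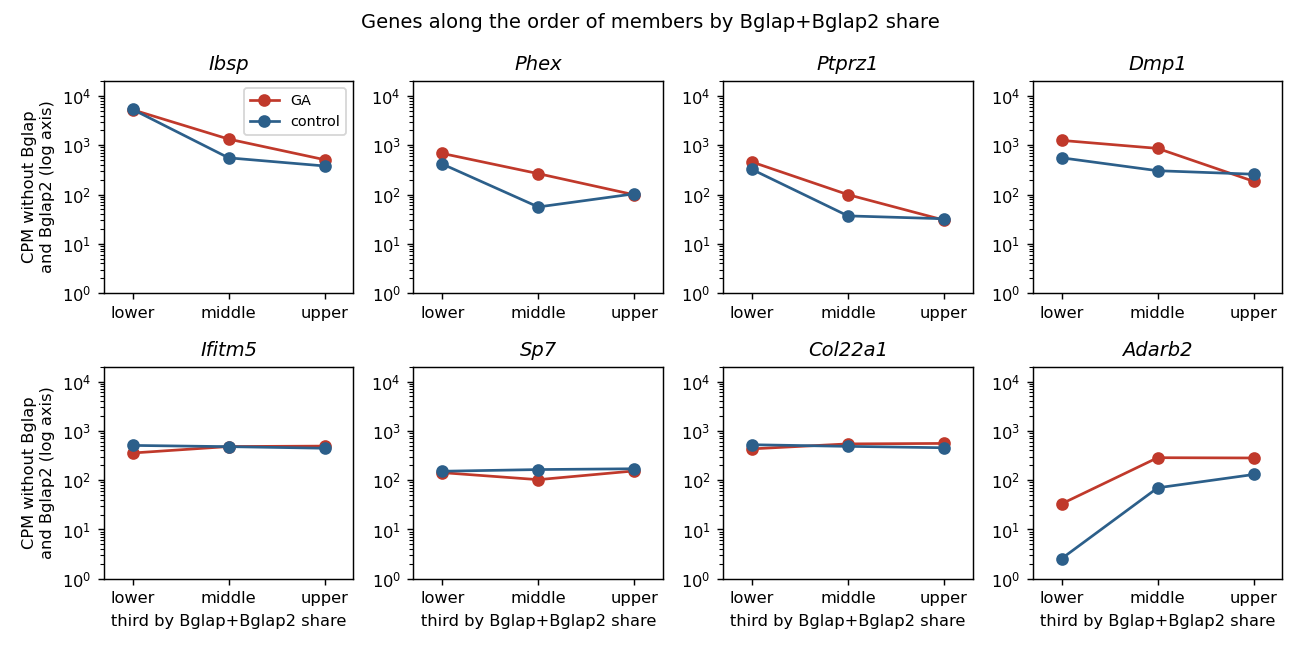
Levels of 8 genes in the lower, middle and upper tertile of Bglap-expressing osteoblasts by the share of UMIs from Bglap and Bglap2, in CPM without those genes on a shared log axis, GA in red and control in blue. Ibsp is at 5239 CPM in the lower and 508 CPM in the upper tertile of GA and at 5325 and 379 CPM in control, Adarb2 at 33.1 and 282 CPM and at 2.57 and 130 CPM, and Ifitm5, Sp7 and Col22a1 stay within a narrow range.

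The 33 GA cells that were Sp7-positive and below the Bglap limit had a higher summed level of Bglap than the 69 control cells, at 310 and 63.3 CPM. The highest Bglap and Bglap2 share below the limit, among all collagen I cells, was 0.460% in GA and 0.288% in control. How many of the 33 and 69 cells carried the summed level is not reported, and its part in the ratios below was not tested. In these cells Ibsp stood at 3708 CPM in GA and 1969 CPM in control and Alpl at 480 and 299 CPM, and both were above their level in the osteoblasts of the same library. Runx2 stood at 760 and 697 CPM, above the osteoblasts in GA and below them in control. Dmp1 stood at 510 CPM in GA and 94.3 CPM in control (log2 ratio 2.44, 2.26–2.62), Phex at 175 and 38.1 CPM (2.20, 1.91–2.50), Fam20c at 65.5 and 27.4 CPM (1.26, 0.85–1.67) and Ifitm5 at 152 and 59.8 CPM (1.34, 1.07–1.61). Dusp6, at 18.1 and 16.9 CPM (0.11, −0.61 to 0.77), and Vegfa, at 73.9 and 86.2 CPM (−0.22, −0.55 to 0.09), did not have the ratio seen in the osteoblasts. Bmp2 had 0.57 (0.31–0.82). In the other collagen I cells, which had Sp7 below 2 UMIs, Dmp1 stood at 0.449 and 0.645 CPM. The differences between these groups of cells were not tested.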

How the data were processed

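Cells from calvarial defects of GA-treated and vehicle-treated mice were profiled by droplet 3′ single-cell RNA-seq, with 1 library per treatment. Per the file headers, the authors deposited filtered matrices of whole UMI counts per gene and barcode made with Cell Ranger 7.0.1, and the methods of the study name the mm10 reference. These counts were used as deposited. The GA matrix held 9322 barcodes and 182949385 UMIs, the control matrix 8718 barcodes and 214993030 UMIs. The members, gene lists and comparisons were chosen with earlier results of these data known.

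Counts were summed over the members of each library and divided by the class total (CPM). The log2 ratio of GA over control carries an exact conditional binomial 95% interval, shares an exact Clopper-Pearson interval, and ratios of shares a log-normal interval. UMIs are molecules, but cells of 1 library are not replicates, so no p-value was computed. A gene entered counts past 2-fold with at least 200 UMIs over both libraries and a list with at least 20. Genes were named from the lists, as the 10 highest and 10 lowest ratios, the 15 highest folds over other collagen I cells, and the 8 highest and 8 lowest ratios between tertiles of the Bglap and Bglap2 share. The ratio code was tested on simulated data. Alternatives covered the cell limits, high Scrublet scores (653 GA and 524 control cells), TMM factors from edgeR 4.0.16 (R 4.3.3), the mean of per-cell CPM, deep members and gene minima. No doublet was removed in the values reported. Python 3.11.15 with NumPy 2.4.6, SciPy 1.17.1 and scanpy 1.11.5 was used, and promoter windows and gene positions came from RefSeq GRCm38.p6 and GENCODE on GRCm38. Some genes of the lists are not reported here.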

Additional observations from a re-analysis of the deposited data

Results flagged for a closer look

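Among 434 genes of the lists and rankings with at least 20 UMIs in both cell groups, 9 were found in which the ratio of GA over control was past 2-fold in one direction in the osteoblasts and past 2-fold in the other direction in all other collagen I cells of the same libraries. The difference between the cell groups was not tested, since each group had 1 library. Of the genes searched, 17 were on the interferon response list, and 6 of these were among the 9. Isg15 had a log2 ratio of −5.16 in osteoblasts and 1.64 in the other collagen I cells, Rsad2 −4.03 and 2.53, Ifit3 −3.16 and 1.81, Irf7 −2.40 and 1.92, Bst2 −1.23 and 1.02, and Rnf213 −1.16 and 1.26. In the osteoblasts these rest on few UMIs. Isg15 had 92 UMIs in 6 control members and 3 UMIs in GA, and Rsad2 56 UMIs in 3 control members. Ly6a, a surface protein of progenitor cells, had −2.92 and 1.13, with all 71 control UMIs in 4 members, and its osteoblast ratio turned to 1.38 with the highest Scrublet scores removed, 2.14 without the 5 deepest members and 1.57 without the members high in Col3a1, which ends the opposite direction. Bst2 and Rnf213 were within 2-fold in some settings, down to −0.18 and −0.53. Foxc2, a transcription factor of mesenchyme, had 1.86 and −1.42, with 17 and 4 UMIs in osteoblasts. Adarb2 had 1.63 and −1.10, with 9 and 42 UMIs in the other collagen I cells.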

How the results depend on the processing

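No paired analysis was possible because each treatment had 1 library and no result came from a test. The ratios of the osteoblast share of all cells and of collagen I cells moved by less than their intervals under the 7 alternatives tried on them, and the other share ratios were not recomputed. Among log2 ratios, Dusp6 stayed between 3.00 and 3.53 over 14 alternatives, Bmp2 between 1.70 and 2.74 and Fam20c between 1.07 and 1.32, whereas 49 of the 94 named genes past 2-fold fell short of it in at least 1, among them Dmp1 (0.95 to 1.42), Sgk1 (0.81 to 1.44), Vegfa (0.69 to 1.51), Pdpn (0.96 to 1.84), Slc20a1 (0.65 to 1.42), Bmp4 (0.76 to 2.30), Spred2 (0.93 to 1.30), Robo2 (−1.16 to −0.76), Klf2 (−1.25 to −0.77) and Fgfr3 (−1.38 to −0.72). Phex ranged from 0.37 to 1.22 and Ibsp from −0.05 to 1.05. Genes at least 2-fold lower in GA numbered 23 in the values reported, 12 with the highest Scrublet scores removed, 6 without the 5 deepest members of each library, 14 without the 5 members highest in each gene, 14 without the members high in Col3a1, and 157 at a minimum of 50 UMIs, where 138 were higher. Of the genes past 2-fold, 61.7% were higher in GA in the values reported, and 79.3%, 85.7%, 79.7%, 72.5% and 46.8% in those settings. The last 2 settings on members (those highest in each gene, and those high in Col3a1) were chosen after seeing the data. Leaving out 5 members of each library takes a larger share of the control members, which can raise these percentages. Of the named genes past 2-fold, 14 changed sign in some setting, and ratios nearer 0 that did so are not listed. With a Bglap limit of 0.25%, Ogn had 0.40. With the highest Scrublet scores removed, the chemokine list had a median of 0.21, Fgf7 1.38, Cxcl2 0.15, Loxl1 0.91, Ccl2 0.21, Ccl7 0.57, Ogn 0.28 and Ly6a 1.38. With the mean of per-cell CPM, Psmb8 had 0.998. Without the 5 deepest members, Loxl1 had 0.16, Clec3b 1.26, Ccl7 0.68, Ifi27l2a 0.19, Ogn 0.68 and Ly6a 2.14. Without the 5 members highest in each gene, the cell cycle list had a median of 0.14, but over fewer genes, since some, such as Mki67, had no ratio there. Top2a and Ccnb2 were below 0 in all 14 alternatives, at most −0.82 and −1.26. In the same setting as that median, Stmn1 had 0.78, Tyms 1.05, Kitl 0.063, Ccl7 1.28 and Ly6e 0.14. Without the members high in Col3a1, Fgf7 had 1.28, Clec3b 1.28, Ccl7 0.50, Ifi27l2a 0.15, Ogn 0.37 and Ly6a 1.57. The cause was not tested. Genes under 20 UMIs over both libraries were too sparse for a ratio.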
